A study of Homo sapiens with 12 samples.

Results

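The comparison described here is the step from 10 min to 30 min of exposure in HepG2 cells. HepG2 is an established human liver cancer line that retains many functions of hepatocytes. The comparison used 6 of the 12 libraries of a time course: the 3 replicates labelled 10 min and the 3 labelled 30 min, chosen by exposure time alone. Both groups were unmodified HepG2 cells given 0.001 µM 2,4-D, a synthetic auxin herbicide, in triplicate, so they share the agent and the dose and differ in time of exposure. The 0 min libraries did not enter, and no untreated libraries matched to 10 or 30 min were analysed here, so exposure and elapsed time cannot be told apart. After the medium was removed, cells were detached with trypsin-EDTA, washed in cold PBS and spun down, RNA was taken up in Trizol, and polyadenylated RNA was captured and reverse transcribed with SmartScribe.

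Several short-lived messages are useful for reading a step of this length. Immediate early genes such as FOS are switched on within minutes by growth factor signals and stress, without new protein synthesis, and their mRNAs decay fast. Signalling through ERK also induces its own inhibitors, among them the Sprouty proteins, the DUSP phosphatases and ERRFI1, which restrains the EGF receptor. When oxygen falls, the transcription factor HIF is stabilised and raises genes of glycolysis, angiogenesis and growth restraint by binding the core letters ACGTG, while in hepatocytes FOXO factors drive insulin-repressed genes such as IGFBP1 and PCK1.

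Total counts, in units of 1e6, were 29.8 to 31.5 at 10 min and 35.6 to 83.5 at 30 min. Hepatocyte and HepG2 markers were present at both times, with ALB (albumin) at 8711 ± 113 counts per 1e6 counts (CPM, scaled by TMM; SD, n = 3) at 10 min and 8560 ± 270 CPM at 30 min, and 0 of the 9 such markers was called by edgeR, DESeq2 or voom (2 at an unadjusted p under 0.05). Of the defining markers of other cells, PTPRC, KDR, KRT7, CD163, MARCO and DCN had 0 counts in all 6 libraries. The 4 leukocyte markers, nearly all LYZ, summed to 1736 to 1960 CPM at 10 min and 1785 to 1857 CPM at 30 min, and the 4 endothelial markers to 1.33 to 2.21 and 1.31 to 1.79 CPM. KRT19, SOX9 and CD68 were expressed too, and none of these was called. Mitochondrially encoded genes took 3.55% to 4.07% of counts in 5 libraries and 2.74% in 30 min replicate 1, and a fit without these genes called 74 genes, among them all 72. The first principal component, with 31.9% of the variance, placed all 30 min libraries on one side of all 10 min libraries.

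Of 16379 genes tested, 72 passed the threshold of an adjusted p under 0.05 (0.440% of the genes tested). They were 19 higher at 30 min (0.116%) and 53 lower (0.324%). Of these, 11 of the 19 higher and 15 of the 53 lower share exon sequence with another gene counted at 10% or more of their level. At an unadjusted p under 0.05 there were 1836 genes. The count moved with the libraries kept: it was 31 without 30 min replicate 1, 34 without 30 min replicate 2, 47 without 30 min replicate 3, 36 without 10 min replicate 1, 47 without 10 min replicate 3 and 59 without 10 min replicate 2. With the replicate number as a block it was 39. These p-values reflect only how far the biological replicates of each time differ. Of the called genes 16 of the 19 higher and 46 of the 53 lower were protein coding. The median log2 fold change of all genes was 0.00017, so the scaling left the middle of all genes at 0. In total RNA from a dish, fewer cells of one state and less RNA per cell cannot be told apart.

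**Figure D1:**
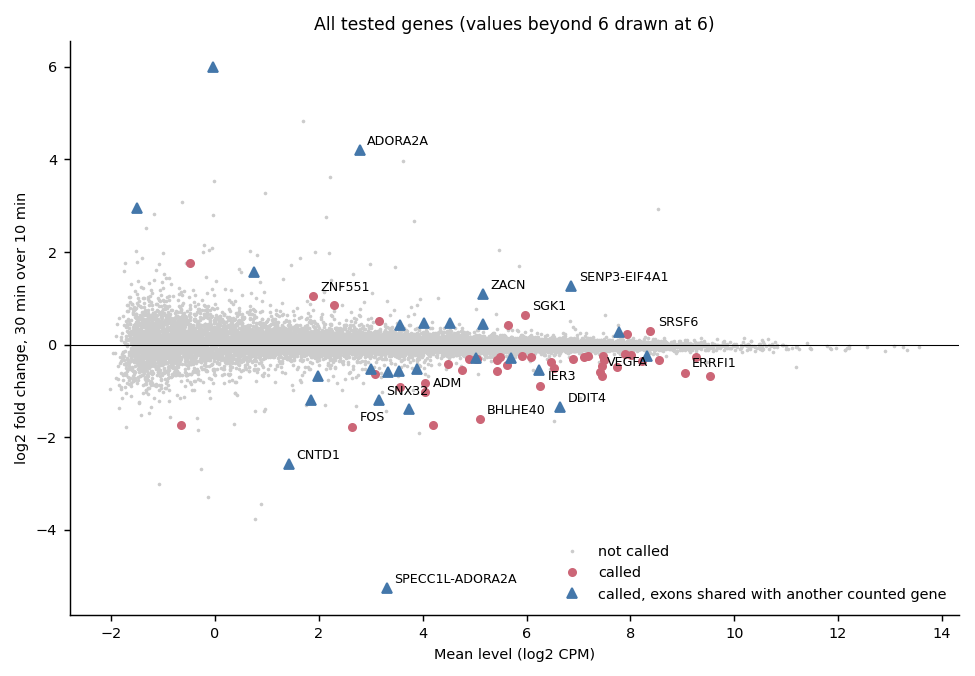
log2 fold change of 30 min over 10 min (y axis) against mean level in log2 CPM (x axis) for all 16379 genes tested. Red circles are called genes and blue triangles are called genes that share exon sequence with another counted gene at 10% or more of their level; the called genes with the largest changes are blue triangles.

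Genes known to respond to low oxygen lay on the lower side at 30 min. All 29 tested members of the hypoxia list had a log2 fold change below 0, with a median of -0.28. In 26 of them (89.7%) every 30 min library lay below every 10 min library, where 9.49% of all tested genes did so. The test called 7 lower (24.1%) and 0 higher, where 0.324% of all tested genes were called lower. The 7 were BHLHE40, ANKRD37, ADM, PFKFB3, VEGFA, SLC2A3 and PFKFB4. Leaving out 1 library left 4 called in 5 cases and 9 without 10 min replicate 2. With the replicate number as a block, 6 were called lower. One listed gene, CA12, was too low to be tested.

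BHLHE40 encodes a basic helix-loop-helix repressor of transcription that also acts in the circadian clock (chr3:4979116-4985323, plus strand, GRCh38). Its level was 52.8, 45.2 and 58.7 CPM in the 10 min replicates 1, 2 and 3, and 17.8, 18.3 and 15.0 CPM in those at 30 min. The groups lay far apart, and all 30 min libraries were under the lowest 10 min library. It fell by 1.61 on the log2 scale, with an SE of 0.10 (adjusted p = 0.000126).

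ADM encodes adrenomedullin, a vasodilator peptide (chr11:10304680-10307397, plus strand). It stood at 21.2, 22.1 and 24.3 CPM at 10 min and at 11.9, 11.5 and 9.65 CPM at 30 min. The groups did not overlap, and the gene fell by 1.03 on the log2 scale, with an SE of 0.093 (adjusted p = 0.0019). The angiogenic growth factor gene VEGFA (chr6:43770184-43786487, plus strand) had 212, 184 and 219 CPM at 10 min against 141, 136 and 131 CPM at 30 min. It fell by 0.59 (SE 0.063, adjusted p = 0.0057), again without overlap. SLC2A3, the glucose transporter GLUT3, fell by 0.49 (SE 0.057, adjusted p = 0.0086), from 244, 234 and 268 CPM to 183, 167 and 183 CPM. BHLHE40, ADM, VEGFA and SLC2A3 kept the call on the omission of any 1 of the 6 libraries.

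DDIT4 (REDD1), an inhibitor of mTORC1 that is induced by hypoxia, energy stress and glucocorticoids, was listed here among the mTORC1 regulators (chr10:72273920-72276036, plus strand). It had 149, 131 and 154 CPM at 10 min and 59.6, 57.2 and 53.5 CPM at 30 min. All 30 min libraries lay far below the lowest 10 min library. DDIT4 fell by 1.35 on the log2 scale, with an SE of 0.065 (adjusted p = 4.2e-05). DDIT4-AS1, which overlaps DDIT4 on the opposite strand by 847 exon bases, fell by 1.39 (SE 0.081, adjusted p = 0.00011), and without strand their reads are not separable. The pair counted as 1 locus fell by 1.35 (SE 0.056, adjusted p = 2.0e-08). No other mTORC1 regulator passed among the 23 tested (FLCN, for example, was at -0.16, adjusted p = 0.26), and the list's median was -0.05. Over all tested genes 0.324% were called lower. Wholly lower at 30 min were 7 of the 23 (30.4%), against 9.49% of all tested genes.

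Promoter letters were read for the genes with a RefSeq entry. In the 250 bases before the RefSeq start (GRCh38.p14), ACGTG occurred on either strand in 14 of the 24 hypoxia genes with an entry (58.3%), in 23.3% of 10706 tested genes and in 18.7% of all 27305 promoters. Among called genes with an entry it was in 13 of 38 lower genes (34.2%) and 2 of 12 higher genes (16.7%). A match describes letters only, and no binding was measured. The hypoxia list was made of genes known to respond to low oxygen, and ACGTG is the core that HIF binds. An excess in that list could follow from its choice alone, so it says nothing about the change between the times. The called lower genes include members of that list, such as BHLHE40 and ANKRD37, so their share is not a separate observation. The stretches of BHLHE40, DDIT4 and CITED2, which fell and hold matches, and of ADM, which fell and has none in this window, are given 5′ to 3′ on each gene's strand, with ACGTG or its reverse complement CACGT in capitals (overlapping matches merge into CACGTG). They are BHLHE40 at chr3:4979187-4979436 with 4 matches, DDIT4 at chr10:72273674-72273923 with 1, CITED2 at chr6:139374649-139374898 on the minus strand with 2, and ADM at chr11:10304823-10305072 with 0. The windows of BHLHE40 and ADM lie within the GENCODE bounds of these genes, which begin further upstream.
BHLHE40: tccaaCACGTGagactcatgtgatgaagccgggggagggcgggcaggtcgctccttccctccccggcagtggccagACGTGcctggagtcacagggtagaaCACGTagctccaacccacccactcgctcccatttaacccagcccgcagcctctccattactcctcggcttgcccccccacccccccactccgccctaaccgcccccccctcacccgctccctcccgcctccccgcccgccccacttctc
DDIT4: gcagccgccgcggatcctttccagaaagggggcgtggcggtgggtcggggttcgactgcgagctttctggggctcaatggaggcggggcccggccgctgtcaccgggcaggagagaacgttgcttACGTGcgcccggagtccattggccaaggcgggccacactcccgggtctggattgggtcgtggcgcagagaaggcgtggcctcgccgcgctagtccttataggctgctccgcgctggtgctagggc
CITED2: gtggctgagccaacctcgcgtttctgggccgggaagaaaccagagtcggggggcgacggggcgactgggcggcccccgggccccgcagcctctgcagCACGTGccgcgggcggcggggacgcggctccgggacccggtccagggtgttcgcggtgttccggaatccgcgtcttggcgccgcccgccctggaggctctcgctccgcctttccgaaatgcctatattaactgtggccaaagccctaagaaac
ADM: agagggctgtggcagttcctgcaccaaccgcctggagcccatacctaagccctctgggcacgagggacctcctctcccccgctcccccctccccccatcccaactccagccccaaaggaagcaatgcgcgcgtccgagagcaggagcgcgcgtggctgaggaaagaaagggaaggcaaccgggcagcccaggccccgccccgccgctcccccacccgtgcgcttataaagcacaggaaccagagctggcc

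The other 3 calls of the hypoxia list rested on less. PFKFB3 and PFKFB4 encode enzymes that set the level of fructose 2,6-bisphosphate, an activator of glycolysis. PFKFB3 had 17.4, 12.1 and 17.8 CPM at 10 min and 7.37, 9.06 and 8.67 CPM at 30 min, and fell by 0.92 (SE 0.15, adjusted p = 0.04). PFKFB4 went from 61.1, 51.6 and 59.1 CPM to 43.9, 38.8 and 43.9 CPM, and fell by 0.44 (SE 0.072, adjusted p = 0.043). In both the 10 min replicate 2 was the lowest 10 min library, as it was in 22 of the 29 hypoxia genes and 16 of the 21 glycolysis genes. The part of this library in the list's result was not tested beyond its omission, which left 9 hypoxia genes called. PFKFB3 and PFKFB4 kept the call only on the omission of that library, and lost it without 10 min replicate 1 or 3 or any 30 min replicate (adjusted p up to 0.18 for each).

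ANKRD37, an ankyrin repeat protein gene, shares 909 exon bases with UFSP2 on the opposite strand. It had 5.78, 3.79 and 6.29 CPM at 10 min and 2.18, 2.61 and 2.10 CPM at 30 min (log2 fold change -1.20, SE 0.19, adjusted p = 0.04), while UFSP2 stood at 25.1, 26.1 and 28.6 CPM and then 23.3, 27.3 and 25.7 CPM. The 2 genes summed, mostly UFSP2 reads, were at -0.20 (adjusted p = 0.26), and the call of ANKRD37 held only on the omission of 10 min replicate 2 (adjusted p up to 0.18 on the others).

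The hypoxia genes that missed the threshold had values below 0 too. EGLN3, an oxygen-sensing prolyl hydroxylase, was at -0.71 (adjusted p = 0.064), NDRG1 at -0.59 (adjusted p = 0.085), ANGPTL4 at -0.77 (adjusted p = 0.16) and CA9, a carbonic anhydrase, at -0.35 (adjusted p = 0.16). Nearest to 0 among metabolic members were lactate dehydrogenase LDHA at -0.10 (adjusted p = 0.39) and the glucose transporter gene SLC2A1 at -0.09 (adjusted p = 0.42). In the glycolysis list 4 of 21 were called lower and 0 higher, with a median of -0.10 and 12 members wholly lower (over all tested genes, 0.324% called lower and 9.49% wholly lower). They were the 2 PFKFB genes, HK2 and ENO2. HK2, the hexokinase that traps glucose in the cell, had 353, 315 and 338 CPM at 10 min and 265, 260 and 256 CPM at 30 min, and fell by 0.36 (SE 0.045, adjusted p = 0.012). HK2 missed the threshold without either 30 min replicate 2 or 3, with adjusted p up to 0.063. ENO2 fell by 0.30 (adjusted p = 0.04), a call held only on the omission of 10 min replicate 2 (adjusted p up to 0.17 on the others).

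**Figure D2:**
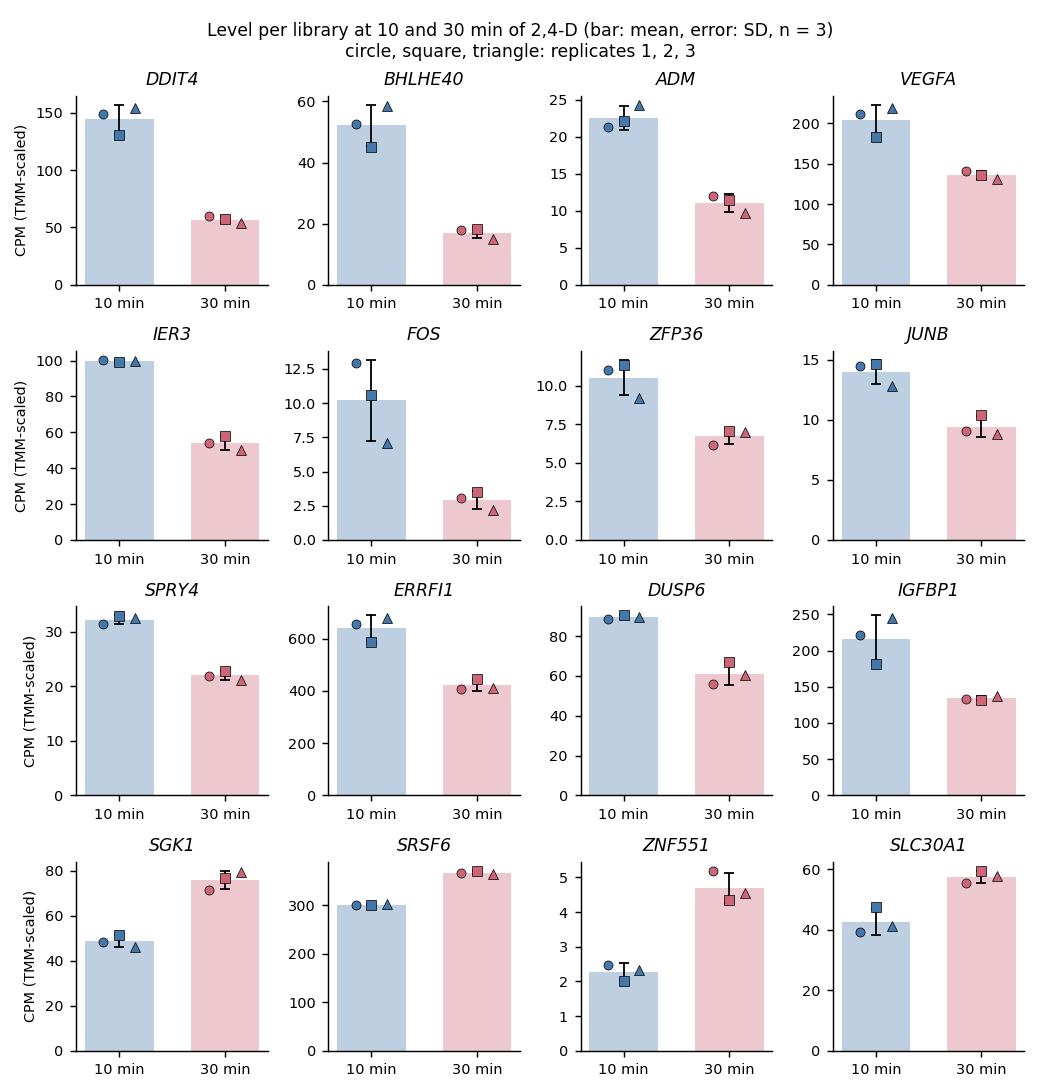
Level in CPM (y axis, from 0) of 16 called genes at 10 and 30 min. Bars are means, error bars SD (n = 3) and points the replicates; in each of the 16 panels the points of the 2 times do not overlap.

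Of 21 tested immediate early genes, 18 had a log2 fold change below 0, and the median was -0.33. The test called 5 lower (IER3, FOS, ZFP36, JUNB and CCN2) and 0 higher. In 16 members (76.2%) the 30 min libraries lay wholly below the 10 min libraries. Over all tested genes 0.324% were called lower and 9.49% lay wholly lower. The count of calls was 1 without replicate 1 of either time, 2 without 30 min replicate 2 or 3, and 3 without 10 min replicate 2 or 3. With the replicate number as a block it was 2. EGR2, EGR3, KLF2, NR4A2 and NR4A3 were too low to be tested.

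IER3, a regulator of cell survival, had 100.3, 99.3 and 99.7 CPM at 10 min and 53.8, 57.9 and 50.3 CPM at 30 min (chr6:30743199-30744554, minus strand). The 10 min libraries were nearly equal, and the gene fell by 0.88 on the log2 scale, with an SE of 0.052 (adjusted p = 0.00011). FOS, which encodes a subunit of the AP-1 transcription factor (chr14:75278774-75282230, plus strand), spread more widely at 10 min, with 12.9, 10.6 and 7.09 CPM. At 30 min it had 3.08, 3.51 and 2.21 CPM, all under the lowest 10 min library. FOS fell by 1.78 (SE 0.23, adjusted p = 0.014). Omission of replicate 1 at either time ended the call (adjusted p up to 0.063). It was also lost when all 4 exposure groups shared 1 estimate of the spread (adjusted p = 0.31).

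The other 3 calls had smaller margins. ZFP36 encodes tristetraprolin, which speeds decay of mRNAs with AU-rich elements, and went from 11.04, 11.3 and 9.21 CPM to 6.14, 7.09 and 6.99 CPM. It fell by 0.64 (SE 0.11, adjusted p = 0.047). JUNB, an AP-1 subunit gene, went from 14.5, 14.7 and 12.8 CPM to 9.05, 10.4 and 8.84 CPM (log2 fold change -0.56, SE 0.094, adjusted p = 0.046). JUNB shares 259 exon bases with HOOK2 on the opposite strand, whose own value was -0.05 (adjusted p = 0.79), and the locus summed was at -0.15 (adjusted p = 0.18). CCN2, a matricellular protein gene regulated by YAP and SRF, had 282, 270 and 286 CPM and then 238, 238 and 238 CPM, and fell by 0.23 (SE 0.034, adjusted p = 0.029).

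JUNB lost the call on the omission of any 1 library, ZFP36 on that of any but 10 min replicate 3, and CCN2 on that of any but 10 min replicate 2 (adjusted p up to 0.20 for JUNB and ZFP36 and 0.14 for CCN2). Among members that did not pass, FOSB stood at -1.39 (adjusted p = 0.089), EGR1 at -0.70 with overlapping libraries (adjusted p = 0.35) and JUN at -0.08 (adjusted p = 0.77). MYC, whose libraries at 30 min all lay above those at 10 min, was at 0.13 (adjusted p = 0.19).

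Of 18 feedback inhibitors and targets of ERK signalling, 3 fell and 0 rose, with a median of -0.10. Of the 18, 16 had a log2 fold change below 0 and 9 lay wholly lower at 30 min, against 9.49% of all tested genes wholly lower and 0.324% called lower. ERRFI1 (chr1:8004404-8026308, minus strand), the EGF receptor inhibitor, had 657, 586 and 679 CPM at 10 min and 407, 447 and 410 CPM at 30 min. It fell by 0.60 (SE 0.060, adjusted p = 0.0032). DUSP6 (chr12:89347232-89353271, minus strand) encodes a cytoplasmic phosphatase specific for ERK. Its levels of 88.8, 90.4 and 89.5 CPM were followed by 56.0, 67.2 and 60.3 CPM, and it fell by 0.55 (SE 0.062, adjusted p = 0.0068). The antisense gene AC024909.1 overlaps it, and the 2 as 1 locus fell by 0.55 too (SE 0.056, adjusted p = 0.00018). SPRY4 (chr5:142310427-142326455, minus strand), a Sprouty inhibitor of receptor tyrosine kinase signalling, went from 31.3, 32.8 and 32.5 CPM to 22.0, 22.9 and 21.2 CPM. It fell by 0.55 (SE 0.048, adjusted p = 0.0016).

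All 3 of these genes kept the call on the omission of any 1 library. SPRY1 was at -0.43 (adjusted p = 0.078) and SPRY2 at -0.30 (adjusted p = 0.31). ETV4 and PHLDA1, targets of ERK in many cells, were at 0.00 (adjusted p = 0.98) and 0.01 (adjusted p = 0.96). The list's median was -0.18 with a stricter filter and -0.21 without 10 min replicate 2.

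**Figure D3:**
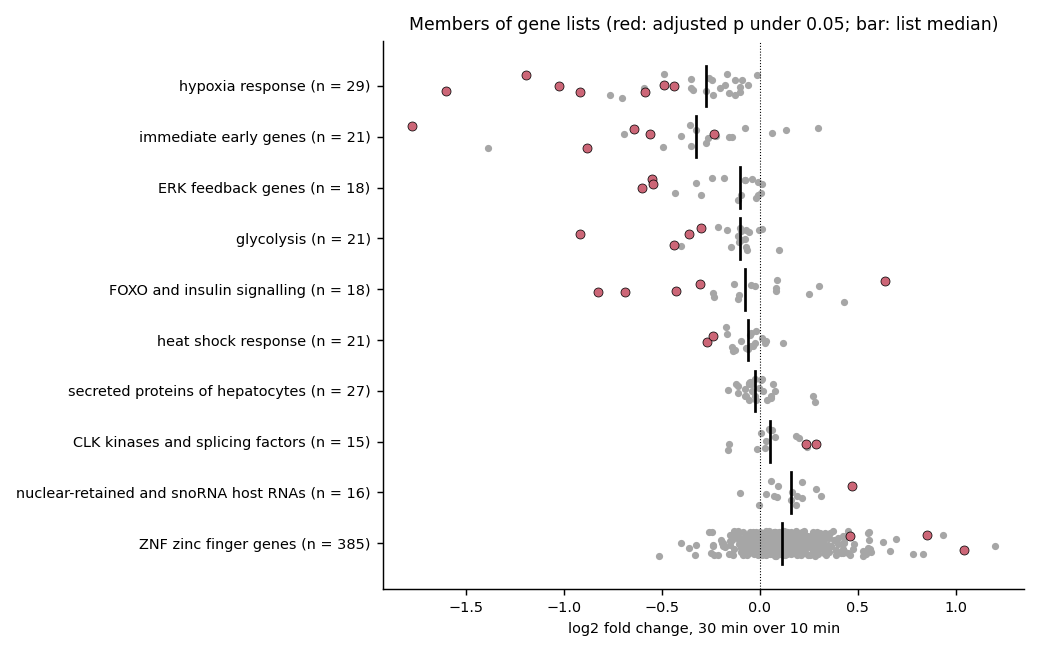
log2 fold change of 30 min over 10 min (x axis) for the tested members of 10 gene lists (rows, number of members in brackets). Red points passed the test and black bars are medians; all 29 hypoxia points lie below 0, while secreted proteins of hepatocytes centre near 0 and 287 of 385 ZNF genes lie above 0.

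Listed genes of FOXO and insulin signalling, which include members of the pathway as well as its targets, were called in both directions. Of 18 tested, 4 fell and 1 rose, with a median of -0.08. At 30 min 8 members lay wholly lower and 4 wholly higher. Over all tested genes 0.324% were called lower and 0.116% higher, while 9.49% lay wholly lower and 8.34% wholly higher. CITED2 encodes a transcriptional cofactor that competes with HIF for its coactivator (chr6:139371807-139374620, minus strand). It had 19.7, 19.6 and 24.7 CPM at 10 min and 12.1, 12.1 and 12.0 CPM at 30 min, and fell by 0.83 (SE 0.094, adjusted p = 0.0073). IGFBP1, a secreted binder of insulin-like growth factors, went from 222, 181 and 246 CPM to 133, 132 and 138 CPM and fell by 0.69 (SE 0.090, adjusted p = 0.016). The libraries at 30 min were close to each other, whereas those at 10 min ranged widely.

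PCK1, the rate-limiting enzyme of gluconeogenesis, fell by 0.43 (SE 0.061, adjusted p = 0.026), from 24.6, 25.4 and 27.7 CPM to 19.9, 18.9 and 18.9 CPM. BCL6, a transcriptional repressor, fell by 0.30 (SE 0.044, adjusted p = 0.026). IGFBP1 lost the call without 10 min replicate 1 or any 30 min replicate (adjusted p up to 0.11), and PCK1 on the omission of any 1 library (adjusted p up to 0.14). FOXO1 and FOXO3 themselves were at -0.11 (adjusted p = 0.58) and 0.08 (adjusted p = 0.55).

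SGK1, a kinase downstream of PI3K that is induced by glucocorticoids and osmotic stress, was the member that rose (chr6:134169246-134318112, minus strand). It had 48.6, 51.5 and 46.3 CPM at 10 min and 71.7, 76.9 and 79.6 CPM at 30 min. The lowest 30 min library stood well above the highest 10 min library. SGK1 rose by 0.64 (SE 0.055, adjusted p = 0.0014) and kept the call under every omission. SGK1 was the only call among the 12 tested SGK, PIM and glucocorticoid-responsive genes, where 0.440% of all tested genes were called. PIM1 was at 0.29 (adjusted p = 0.14) and DUSP1, wholly lower at 30 min, at -0.33 (adjusted p = 0.20). FKBP5 was at 0.04 (adjusted p = 0.76) and PER1 at -0.12 (adjusted p = 0.58). DDIT4, also induced by glucocorticoids but listed with the mTORC1 regulators, was called in the opposite direction (-1.35, adjusted p = 4.2e-05).

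Of 15 CLK kinases and SR splicing factors, 2 rose and 0 fell, with a median of 0.05 and 6 members wholly higher at 30 min. Over all tested genes 0.116% were called higher and 8.34% lay wholly higher. SRSF6, an SR protein that guides exon choice (chr20:43457928-43464247, plus strand), had 301, 300.2 and 304 CPM at 10 min and 368, 371 and 364 CPM at 30 min. The spread within each time was small against the gap, and SRSF6 rose by 0.28 (SE 0.031, adjusted p = 0.006). SRSF10 rose by 0.24 (SE 0.034, adjusted p = 0.027), from 219.5, 231 and 227 CPM to 267, 269 and 263 CPM. That call held only on the omission of 10 min replicate 2 (adjusted p up to 0.13 on the others). SRSF5 (0.24, adjusted p = 0.061) and SRSF2 (0.20, adjusted p = 0.095) were near, while CLK2 and CLK3 were each at -0.16 (adjusted p = 0.23 and 0.22).

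Zinc finger genes of the ZNF family, most of them repressors of transcription, lay mostly above 0, by small amounts. Of 385 tested, 3 rose and 0 fell (0.779% called higher, against 0.116% of all tested genes). A log2 fold change above 0 was seen in 287 (74.5%), against 50.1% of all genes. Wholly higher at 30 min were 90 (23.4%), against 8.34% of all tested genes. The median was 0.11. ZNF551 (chr19:57681969-57717301, plus strand) had 2.48, 2.01 and 2.34 CPM at 10 min and 5.19, 4.35 and 4.56 CPM at 30 min, and rose by 1.05 (SE 0.14, adjusted p = 0.015). The call was lost without 30 min replicate 1 (adjusted p = 0.068). ZNF441 rose by 0.85 (adjusted p = 0.047) and ZNF721 by 0.46 (adjusted p = 0.038), and each kept the call in 1 of the 6 omissions (adjusted p up to 0.19 and 0.15). ZNF441 kept it only without 10 min replicate 2, and ZNF721 only without 30 min replicate 3. Summed with ABCA11P, which shares its exons, ZNF721 was at 0.36 (adjusted p = 0.055). Across 12460 genes averaging 1 log2 CPM or more, the log2 fold change had a Spearman rho of -0.13 with GC content, a description across genes, which are not independent replicates. With the GC trend removed, an alternative chosen after seeing the data, the ZNF median was 0.098, and ZNF721 was no longer called (adjusted p = 0.060).

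Nuclear-retained RNAs and hosts of small nucleolar RNAs were also mostly above 0, with 14 of 16 above 0, a median of 0.16 and 7 wholly higher (43.8%), where 50.1% of all tested genes were above 0 and 8.34% wholly higher. The test called 1 of the 16 higher, where 0.116% of all tested genes were called higher. It was EPB41L4A-AS1 (0.47, SE 0.075, adjusted p = 0.04), which went from 18.2, 17.8 and 21.3 CPM to 27.7, 26.1 and 25.6 CPM. Its call held only on the omission of 10 min replicate 3 (adjusted p up to 0.18 on the others). MALAT1 was at 0.31 (adjusted p = 0.28) with 30 min replicate 1 the highest library, at 64.2 CPM, and 30 min replicate 3 at 47.4 CPM. SLC30A1, the zinc exporter of the plasma membrane, rose by 0.43 (SE 0.067, adjusted p = 0.038), from 39.4, 47.5 and 41.1 CPM to 55.5, 59.4 and 58.0 CPM. Its call held only without 10 min replicate 2 (adjusted p up to 0.15 on the others). The other 11 tested genes of zinc handling did not pass, with MT2A at -0.03 (adjusted p = 0.89). Over all tested genes 0.440% were called, so this says little about those 11.

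The heat shock, endoplasmic reticulum stress, ATF4 and p53 lists held 1 or 2 calls each, all lower, where 0.324% of all tested genes were called lower. GDF15, a stress cytokine listed with the targets of ATF4 and p53, fell by 0.50 (SE 0.045, adjusted p = 0.0019), from 113, 103 and 110 CPM to 74.4, 79.5 and 77.9 CPM. It was the 1 called gene of 23 ATF4 genes and of 25 p53 targets, whose medians were -0.07 and -0.01.

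HSPA1A and HSPA1B encode HSP70 chaperones with almost the same sequence, so how reads fell to each is uncertain. They were the 2 calls of 21 heat shock genes. For this and the lists below, 0.324% of all tested genes were called lower. HSPA1A fell by 0.27 (adjusted p = 0.038) and HSPA1B by 0.24 (adjusted p = 0.04), and both lost the call on the omission of any 1 library (adjusted p up to 0.13 and 0.15). HERPUD1 fell by 0.25 (adjusted p = 0.028; up to 0.14 on the omission of any 1 library) among 19 endoplasmic reticulum stress genes. IER3 was the 1 call of 18 NF-kB response genes, in which NFKBIA, the inhibitor of NF-kB, was at 0.39 (adjusted p = 0.086). ID1 fell by 0.26 (adjusted p = 0.04) among 13 BMP and ID genes, TOB2 by 0.32 (adjusted p = 0.04) beside ZFP36 among 17 mRNA decay factors, and the lipid droplet gene PLIN2 by 0.27 (adjusted p = 0.028) among 13 PPAR-alpha genes. Each kept the call in 1 of 6 omissions: ID1 and PLIN2 without 10 min replicate 2 (adjusted p up to 0.18 and 0.14 on the others), and TOB2 without 10 min replicate 3 (up to 0.18).

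In 7 of the lists no member passed by edgeR. Over all tested genes 0.440% were called, so 0 calls in lists of this size say little about their members. Of the aryl hydrocarbon receptor list 0 of 6 were called by edgeR, DESeq2 or voom and 0 had an unadjusted p under 0.05. CYP1A1, the classic target of that receptor, had 3.43, 2.08 and 2.34 CPM at 10 min and 2.35, 2.34 and 2.21 CPM at 30 min (-0.18, SE 0.19, adjusted p = 0.77), and the times overlapped. All 3 tools also called 0 of 12 NRF2 targets (1 at an unadjusted p under 0.05; HMOX1 at -0.12, adjusted p = 0.28), 0 of 27 secreted proteins of hepatocytes (3 unadjusted), 0 of 18 genes of G2 and M phase (1 unadjusted) and 0 of 13 mitochondrially encoded mRNAs (1 unadjusted). Of 17 hepatocyte transcription factors edgeR and voom called 0 and DESeq2 3, with 6 unadjusted. HNF4A, the master regulator of hepatocyte identity, was at -0.14 (adjusted p = 0.22). Of 14 cholesterol synthesis genes edgeR and voom called 0 and DESeq2 1, with 3 unadjusted.

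A share of the calls could not be assigned to 1 gene. Of the 72 called genes, 26 share exon sequence with another gene counted at 10% or more of their level. When genes that share exons were summed into 1 locus, an alternative chosen after seeing the data, 7 of these 26 were called in the same direction, against 45 of the 46 other called genes (HSPA1B was the exception). The 7 were 2 of the 11 called higher and 5 of the 15 called lower. Sums are dominated by the larger partner, so a change of a small gene can go unseen in them.

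ADORA2A, the adenosine receptor gene, had 0.850, 0.594 and 0.513 CPM at 10 min and 11.4, 11.9 and 12.8 CPM at 30 min (log2 fold change 4.20, adjusted p = 9.3e-06). SPECC1L-ADORA2A, the readthrough gene model that spans it, had 20.1, 20.4 and 21.9 CPM at 10 min and 1.31, 0 and 0 CPM at 30 min. These 2 models summed had a mean of 21.4 CPM at 10 min and 12.5 CPM at 30 min (log2 ratio -0.78, without a test). The gain of ADORA2A thus did not cancel the loss of SPECC1L-ADORA2A. With SPECC1L and the rest of the locus included, the sum was 92.0 ± 2.3 CPM at 10 min and 89.4 ± 3.4 CPM at 30 min (SD, n = 3; log2 fold change -0.04, adjusted p = 0.73). Most of that larger sum was SPECC1L, with 69.3, 63.8 and 65.1 CPM at 10 min. Summed values near 0 were also found for ZACN with EXOC7 (1.09 alone, 0.02 summed) and CNTD1 with BECN1 and PSME3 (-2.58 alone, 0.00 summed). So were those of SNX32 with CFL1 (-1.20 alone, -0.02 summed) and SENP3-EIF4A1 (1.26 alone, -0.01 summed). CNTD1 went from a mean of 5.18 to 0.859 CPM in a locus of 317 CPM. SNX32 went from 12.8 to 5.56 CPM in a locus of 531 CPM at 10 min. For ZACN the means were 22.6 and 48.2 CPM in a locus of 319 CPM at 10 min. Sums so much larger than the gene cannot show whether it changed. Counted alone, ZACN, CNTD1 and SNX32 kept the call on the omission of any 1 library. No direction is drawn for these 6 gene models, since reads in shared exons are not separable.

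**Figure D4:**
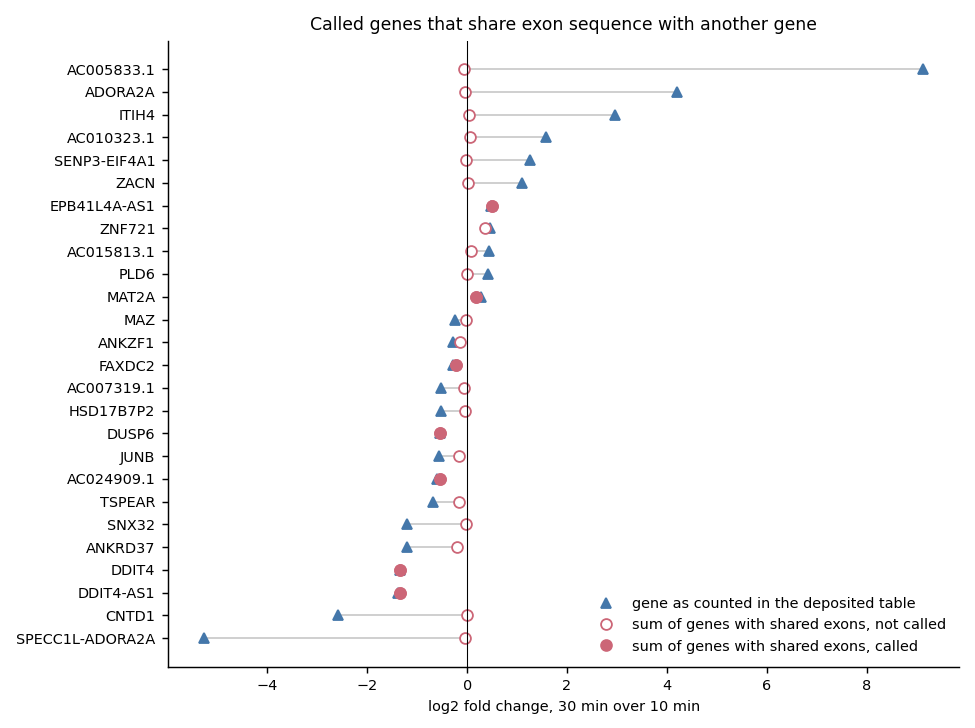
log2 fold change of 30 min over 10 min (x axis) for the 26 called genes that share exon sequence with a gene at 10% or more of their level (rows). Triangles are the genes as counted and circles the sums over genes with shared exons, filled where the sum was called; 7 circles are filled, and the sums of ADORA2A, ZACN, CNTD1 and SNX32 lie at 0.

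At 360 min many of the genes that fell stood higher again. These values are given side by side without a test, since the genes were chosen by their 30 min values and those libraries serve both steps. The 360 min values were scaled together with the 10 and 30 min libraries, and the others with those times alone. Leaving out the 6 gene models above, 25 of the 32 named genes called lower had a 360 min mean above that at 30 min. Of the 12 called higher, 10 had one below it. The share over all tested genes was not taken. Some of these genes were not called as summed loci, such as PLD6 (0.42 alone, -0.011 summed) and AC015813.1 (0.44 alone, 0.07 summed). DDIT4 was at 145 ± 12 CPM at 10 min, 56.8 ± 3.1 CPM at 30 min and 215 ± 7.6 CPM at 360 min (SD, n = 3). BHLHE40 was at 52.2 ± 6.8, 17.0 ± 1.8 and 56.3 ± 0.64 CPM at the 3 times, and IER3 at 99.8 ± 0.52, 54.0 ± 3.8 and 146 ± 9.5 CPM.

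Some genes that fell stayed low. FOS was at 2.10 ± 0.72 CPM at 360 min and ERRFI1 at 406 ± 13 CPM, each below its 30 min mean. Of the genes that rose, SGK1 was at 33.8 ± 0.11 CPM at 360 min, below all libraries at 10 and 30 min, and SRSF6 at 303 ± 6.7 CPM, near its 10 min level.

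**Figure D5:**
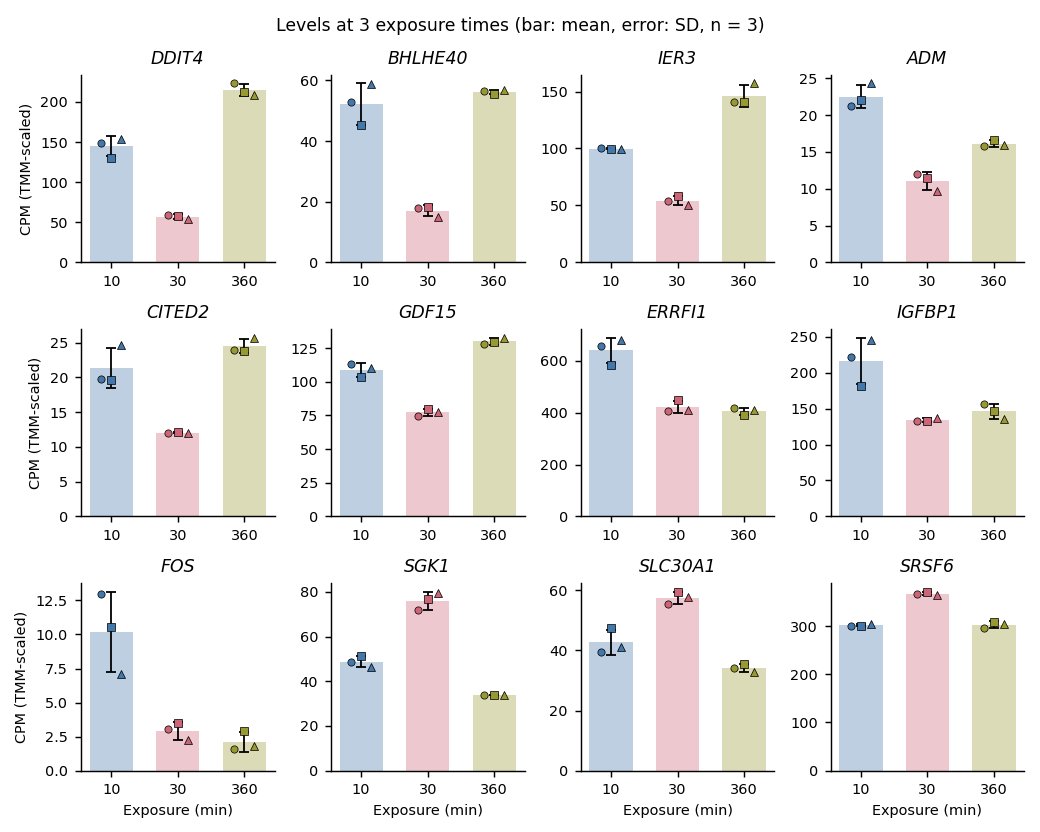
Level in CPM (y axis, from 0) of 12 called genes at 10, 30 and 360 min (x axis). Bars are means, error bars SD (n = 3) and points the replicates; DDIT4 and IER3 at 360 min stand above their 10 min levels, while FOS stays low.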

How the data were processed

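The authors deposited whole-number read counts per gene, 60612 rows, of which 58394 (96.34%) matched GENCODE release 29; positions and exon overlaps come from it. The submitters' processing notes name HISAT2, DESeq2 and the GRCh38 build. Not given in the sources used here are tool versions, the counting program, its annotation and whether strand was used. Genes with shared exons, antisense partners and near-identical copies are therefore uncertain.

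The 3 libraries at 30 min and the 3 at 10 min were fitted alone with edgeR 4.0.16 in R 4.3.3 (filterByExpr by group, TMM factors 0.989 to 1.018, quasi-likelihood test with 4 residual degrees of freedom, common dispersion 0.00768). Calls needed an adjusted p under 0.05 (Benjamini-Hochberg, over all 16379 genes). Tests were two-sided, and all adjusted p-values printed come from this test, unless another fit is named. The SE is the absolute log2 fold change divided by the square root of F. Total counts of 29.8 to 83.5 (units of 1e6) put 3 counts, below which a 0 says little, at 0.0359 to 0.101 CPM, for counting error only. Replicates differed by more than sampling noise, so all were kept as separate libraries. The test was checked on simulated data.

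The comparison and the gene lists were chosen with earlier results of these data known. Genes were named if called, not overlapping between times and at 1 log2 CPM or more on average, taking the 15 of largest change per direction; each list also gave up to 4 members, those of smallest p. BCL6, members quoted as values beyond these (such as EGLN3, NDRG1, FOSB, EGR1, JUN, MYC, LDHA, SPRY2, ETV4, FOXO1, FKBP5, CLK2, MALAT1 and MT2A) and MIR17HG were chosen after their values were seen. Promoters are RefSeq's (GRCh38.p14), the 250 bases before the start. Alternatives were DESeq2 1.42.0, limma voom (limma 3.58.1), other scalings, filters, thresholds and spreads, thinning, a replicate block and the omission of each library. One called gene is not reported here.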

Additional observations from a re-analysis of the deposited data

How the results depend on the processing

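With 3 libraries a side, the count of calls moved with the set of libraries, while directions were steady. Of the 50 named genes called, 14 were called under every alternative tried (SGK1, SRSF6, BHLHE40, DDIT4, DDIT4-AS1, ADM, IER3, CITED2, GDF15, SPRY4, ERRFI1, DUSP6, VEGFA and SLC2A3), and 4 changed sign under any, all when genes with shared exons were summed: ADORA2A (-0.042), SENP3-EIF4A1 (-0.014), PLD6 (-0.011) and CNTD1 (0.0018). That alternative and the removal of a GC trend were chosen after seeing the data.

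The main counts were 72 called, 19 higher, 53 lower, 5 immediate early and 7 hypoxia genes lower. Leaving out 1 library gave 31 to 59 called, 9 to 21 higher, 22 to 38 lower, 1 to 3 immediate early genes lower and 4 to 9 hypoxia genes lower; the fewest calls were without 30 min replicate 1 (31), 30 min replicate 2 (34) and 10 min replicate 1 (36). DESeq2 called 217 genes, 74 higher and 143 lower, with 11 immediate early and 17 hypoxia genes lower. Summing genes with shared exons gave 118 called, 36 higher and 82 lower, with 8 immediate early genes in loci called lower. A spread shared with 360 min gave 109 called and 36 higher; a spread shared by all 4 groups gave 29 higher, 1 immediate early and 11 hypoxia genes lower. Total-count scaling gave 35 lower and 3 immediate early genes lower, with 36.4% of calls higher against 26.4%, and no filter gave 36 higher (42.9% of calls). At adjusted p under 0.01 there were 22 called, 5 higher, 17 lower, 1 immediate early and 4 hypoxia genes lower; at 0.1 there were 134 called, 46 higher and 88 lower. The cause of these differences was not tested.

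The main fit did not take the replicate numbers as pairs. The correlation of deviations between same-numbered libraries was 0.076, 0.13 and 0.19, and between the others it ran from -0.14 to 0.055. Each library correlated best with its own number, so whether the replicates were paired is not settled here. With the replicate number as a block there were 39 called, 11 higher and 28 lower, with 2 immediate early and 6 hypoxia genes lower.

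Depth limits the low end: 3 counts are 0.101 CPM in the shallowest library and 0.0359 CPM in the deepest. Libraries thinned to the smallest total gave 56 called.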

Other observations

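Several genes outside the lists fell and are given as values, chosen after they were seen. EPHA2, an ephrin receptor tyrosine kinase, had 209, 194 and 194 CPM at 10 min and 157, 160.3 and 159 CPM at 30 min (log2 fold change -0.33, edgeR adjusted p = 0.0094). The adaptor genes NEDD9 (192, 197 and 218 CPM, then 147, 143 and 151 CPM; -0.46, adjusted p = 0.006) and CRKL (98.9, 98.2 and 103 CPM, then 75.8, 76.8 and 78.2 CPM; -0.38, adjusted p = 0.0027) take part in integrin and growth factor signalling. SLC38A2, a transporter of neutral amino acids, fell by 0.33 (adjusted p = 0.02). The libraries of the 2 times did not overlap in any of these 4 genes.

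At low counts, MIR17HG, the host transcript of the miR-17-92 cluster (chr13:91347820-91354579, plus strand, GRCh38), had 0.238, 0.297 and 0.257 CPM at 10 min and 0.847, 1.03 and 0.839 CPM at 30 min (log2 fold change 1.77, SE 0.25, edgeR adjusted p = 0.026).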
